A study of Homo sapiens with 4 samples.

Results

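Peaks at CpG-poor protein-coding promoters were the CUT&RUN peaks within 1000 bp of the start of a protein-coding transcript, where no start so met was CpG-rich. A start was CpG-rich when the 500 bp on each side of it held at least 55% G and C together with a CpG observed/expected ratio (the number of CpG dinucleotides over the number its C and G content would give by chance) of at least 0.6. There were 1942 such peaks among 49583, of which 919 of 24212 (3.80%) came from the iBRG1 list and 1023 of 25371 (4.03%) from the i∆HSA list. CpG-rich promoters held 1756 and 2154 peaks of those lists, and 21537 and 22194 peaks met no protein-coding start.

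CUT&RUN releases DNA around a chromatin protein with an antibody-directed nuclease and sequences the fragments. SW-13 adrenocortical carcinoma cells, which lack the SWI/SNF ATPases BRG1 and BRM, carried an inducible transposon for wild-type BRG1 (iBRG1) or for BRG1 with its HSA domain (helicase/SANT-associated) deleted (i∆HSA), both with a V5 tag and each as a clone grown from an individual cell. Both groups were treated with doxycycline for 24 h, with 2 replicates of 300000 cells each and an antibody against V5. A single peak list stood for both replicates of a construct, so no value below has a replicate error, and a difference between the lists cannot be told apart from a difference between clones or libraries. The read depth reached behind the lists is not given in the sources used here, and the scale of the integer score of each peak is not stated.

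Most human promoters lie in CpG islands and serve broadly expressed genes. CpG-poor promoters more often belong to genes of single tissues, such as olfactory receptors, keratins and cytokines, are commonly methylated where inactive, and more often carry a TATA box, which places transcription initiation at a defined base. SWI/SNF moves or evicts nucleosomes, and its HSA domain binds actin-related and other accessory subunits.

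The upstream sequences of 6 member promoters and the centers of 3 overlapping pairs of peaks are shown because they carry the letters compared below, and they were chosen after their values were seen. All are from hg19, read 5′ to 3′, with matches to the letters named for each set in capitals. Letters of the other motifs compared below were not marked, and some occur in lower case, such as tgagtca (AP-1) at NME1 and tataaa at NCEH1. The first set holds CpG-poor starts with an observed/expected ratio under 0.6 that lay inside a peak of both lists. They have TATAAA or TGACTCA (AP-1, the FOS and JUN site) in the 200 bases upstream of the start on either strand. These letters were in 14.7% and 4.48% of such windows at the 7695 CpG-poor canonical starts (the annotation's main start of a gene), against 3.12% and 1.20% at the 11825 CpG-rich ones. MMP10 encodes the matrix metalloprotease stromelysin-2 (chr11:102651360-102651559, minus strand), and its TATAAA began at position -31, counting the base before the start as -1. RFFL encodes a ubiquitin ligase (chr17:33390727-33390926, minus strand), and its AP-1 letters, on the reverse strand, began at position -81. DNAJC12 encodes a co-chaperone (chr10:69597947-69598146, minus strand), with TATAAA from position -89.
MMP10: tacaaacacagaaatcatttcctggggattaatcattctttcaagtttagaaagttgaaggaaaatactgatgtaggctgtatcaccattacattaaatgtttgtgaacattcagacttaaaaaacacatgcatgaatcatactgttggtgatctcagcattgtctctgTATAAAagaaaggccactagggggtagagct
RFFL: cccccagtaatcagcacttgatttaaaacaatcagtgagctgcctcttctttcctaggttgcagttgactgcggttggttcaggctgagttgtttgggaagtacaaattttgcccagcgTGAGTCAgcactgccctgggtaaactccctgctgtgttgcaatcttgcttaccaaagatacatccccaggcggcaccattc
DNAJC12: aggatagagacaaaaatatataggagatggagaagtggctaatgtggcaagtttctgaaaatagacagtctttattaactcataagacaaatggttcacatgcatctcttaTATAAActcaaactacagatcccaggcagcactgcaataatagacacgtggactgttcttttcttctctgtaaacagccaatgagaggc

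The second set holds starts with an observed/expected ratio of at least 0.6 that stayed in the CpG-poor class through a GC content under 55%, with the ETS letters CCGGAAGT in capitals. These letters were in the 200 bases upstream of 10.9% of the 1238 canonical starts of this kind, against 2.56% of all CpG-poor and 6.20% of CpG-rich canonical starts. All 3 starts lay inside an i∆HSA peak and inside no iBRG1 peak. NME1 encodes a nucleoside diphosphate kinase (chr17:49230720-49230919, plus strand, i∆HSA score 25). STEEP1 encodes a trafficking factor of the innate immune protein STING (chrX:118699373-118699572, minus strand, score 14). EDEM2 encodes a mannosidase of endoplasmic reticulum quality control (chr20:33735140-33735339, minus strand, score 12). The CpG dinucleotides numbered 12, 8 and 15 in these 200 bases, against 0, 3 and 1 in the first set. The first set was taken from starts with a ratio under 0.6, and CCGGAAGT itself holds a CpG. The choice of the sets thus favored this difference, which is no result.
NME1: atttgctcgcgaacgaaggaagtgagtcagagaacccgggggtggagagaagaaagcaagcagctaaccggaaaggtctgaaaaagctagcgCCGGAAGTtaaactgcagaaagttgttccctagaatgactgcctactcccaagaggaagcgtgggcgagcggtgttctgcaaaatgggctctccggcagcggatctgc
STEEP1: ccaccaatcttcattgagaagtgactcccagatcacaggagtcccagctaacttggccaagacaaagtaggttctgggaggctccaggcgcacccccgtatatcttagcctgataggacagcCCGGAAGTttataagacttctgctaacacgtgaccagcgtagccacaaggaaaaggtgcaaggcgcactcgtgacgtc
EDEM2: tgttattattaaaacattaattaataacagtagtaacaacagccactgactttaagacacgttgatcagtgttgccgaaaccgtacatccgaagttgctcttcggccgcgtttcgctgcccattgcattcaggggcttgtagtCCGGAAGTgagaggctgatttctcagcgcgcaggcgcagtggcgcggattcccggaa

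The third set shows 127 bases around AP-1 letters that lay within 100 bp of the midpoints of both peaks of a pair, on the plus strand. MAPRE2 (chr18:32559240-32559366) holds the letters at 2 places, 1 on each strand. ASB5 (chr4:177191953-177192079) encodes a muscle protein of ubiquitin ligase complexes, and NCEH1 (chr3:172429084-172429210) a neutral cholesterol ester hydrolase.
MAPRE2: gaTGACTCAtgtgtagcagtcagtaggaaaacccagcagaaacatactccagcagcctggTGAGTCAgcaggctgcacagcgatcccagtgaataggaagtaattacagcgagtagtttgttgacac
ASB5: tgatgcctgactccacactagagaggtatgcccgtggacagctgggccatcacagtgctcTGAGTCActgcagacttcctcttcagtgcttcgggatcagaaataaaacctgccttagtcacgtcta
NCEH1: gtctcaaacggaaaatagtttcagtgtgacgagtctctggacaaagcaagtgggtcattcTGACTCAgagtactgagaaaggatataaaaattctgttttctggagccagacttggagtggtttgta

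Fewer CpG-poor than CpG-rich genes carried a peak in either list, and within the CpG-poor class the share with a peak was higher in each higher class of CpG content in both lists, except that the lowest 2 classes did not separate in the iBRG1 list. A gene was CpG-poor when none of its protein-coding starts was CpG-rich. More starts give a gene more chances of a high ratio and of a peak. The number of starts per gene was not taken into account in these comparisons. Of the 19796 protein-coding genes, 15.0% had an iBRG1 peak and 17.6% an i∆HSA peak within 1000 bp of a start. Among the 7063 CpG-poor genes the counts were 513 (7.26%; 95% interval, 6.68–7.89%) and 674 (9.54%; 8.88–10.2%). Among the 12733 CpG-rich genes they were 2460 (19.3%) and 2812 (22.1%). The odds ratios of CpG-poor against CpG-rich genes were 0.327 (95% interval, 0.295–0.362, adjusted exact p = 1.37e-125) and 0.372 (0.340–0.407, adjusted exact p = 8.00e-118) by two-sided Fisher's exact tests. Genes and peaks are not replicates, so these tests and those below describe the lists.

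CpG-poor genes whose highest observed/expected ratio was under 0.2 numbered 1535, of which 52 (3.39%) had an iBRG1 peak and 45 (2.93%) an i∆HSA peak. From 0.2 to 0.4 the shares were 4.09% (3.41–4.91%) and 5.17% (4.40–6.08%) of 2687 genes. From 0.4 to 0.6 they were 8.96% (7.70–10.4%) and 11.3% (9.88–12.9%) of 1718 genes. At 0.6 and over, with GC content under 55%, they were 17.5% (15.4–19.9%) and 26.4% (23.9–29.0%) of 1123 genes. The last share lay above that of CpG-rich genes in the i∆HSA list, where the intervals did not overlap, and the intervals overlapped in the iBRG1 list. The median of the highest ratio was 0.557 for CpG-poor genes with an iBRG1 peak and 0.318 for those without, and it was 0.583 and 0.312 in the i∆HSA list. These classes were set after the values were seen and were not tested.

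**Figure D1:**
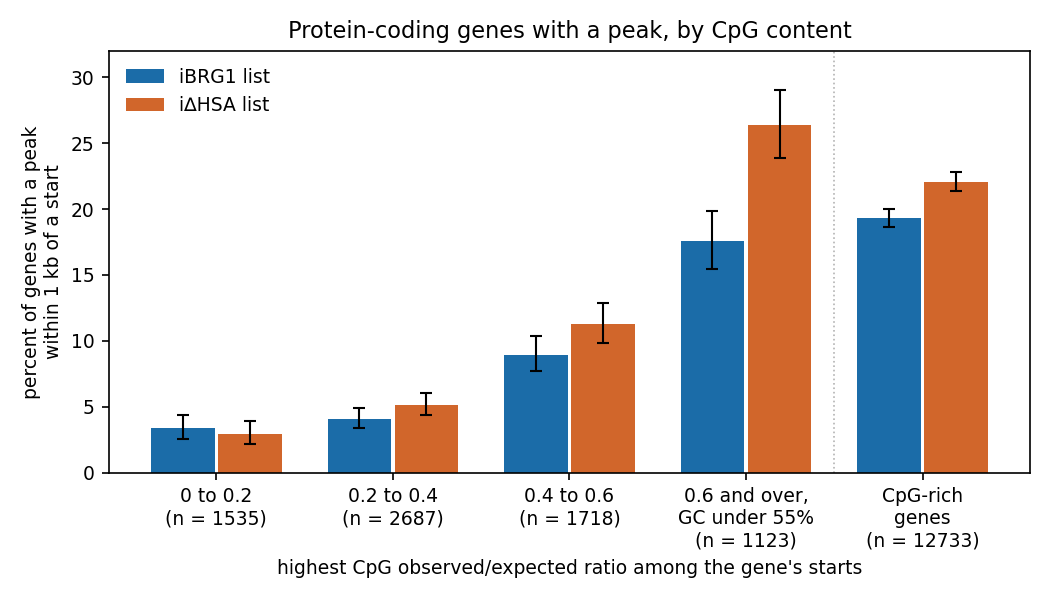
Percent of protein-coding genes with a peak within 1000 bp of a start (y axis) by the highest CpG observed/expected ratio among the gene's starts (4 classes of CpG-poor genes, then CpG-rich genes), for the iBRG1 and i∆HSA lists. Error bars show the 95% Wilson interval and reflect counting error alone. The bars of CpG-poor genes go from 3.39% and 2.93% in the lowest class to 17.5% and 26.4% in the highest.

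Both lists held a peak at 181 CpG-poor genes, which is 35.3% of those with an iBRG1 peak and 26.9% of those with an i∆HSA peak. Over all 19796 protein-coding genes these shares were 39.8% and 33.9%, and over CpG-rich genes 40.7% and 35.6%. Only the iBRG1 list held a peak at 332 CpG-poor genes and only the i∆HSA list at 493, against 1790 and 2303 of all protein-coding genes. Of the CpG-poor genes with a peak, 461 (89.9%) and 624 (92.6%) were met by a peak of the CpG-poor class, and the other 52 and 50 by peaks that also met a CpG-rich start of another gene. Peaks of the CpG-poor class met 917 and 1042 genes in all, with 298 in both, because many lay at CpG-poor alternative starts of genes that also have a CpG-rich start. Such peaks, at no canonical start, were 453 (49.3%) of the iBRG1 members and 399 (39.0%) of the i∆HSA members. Peaks at a canonical start of a gene with only CpG-poor starts numbered 330 (35.9%) and 466 (45.6%).

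CpG-poor promoter peaks of one list overlapped a peak of the other less often than CpG-rich promoter peaks and more often than peaks at no protein-coding start. In the iBRG1 list 276 of 919 members (30.0%; 27.2–33.1%) overlapped an i∆HSA peak by at least 1 bp, against 20.5% of all iBRG1 peaks. The share was 37.6% at CpG-rich promoters (odds ratio 0.711, 0.597–0.846, adjusted exact p = 0.000115) and 18.7% away from starts (odds ratio 1.86, 1.61–2.16, adjusted exact p = 2.87e-15). In the i∆HSA list 260 of 1023 members (25.4%; 22.8–28.2%) overlapped an iBRG1 peak, against 19.6% of all i∆HSA peaks. The share was 31.4% at CpG-rich promoters (odds ratio 0.745, 0.627–0.884, adjusted exact p = 0.000546) and 18.2% away from starts (odds ratio 1.53, 1.32–1.78, adjusted exact p = 3.90e-08). All 4 were two-sided Fisher's exact tests, adjusted together. With both lists held to scores of at least 5 none of the 4 differences passed: the odds ratios against CpG-rich promoters were 0.935 (adjusted exact p = 0.893) and 1.01 (adjusted exact p = 0.899), and those against peaks away from starts were 1.20 (adjusted exact p = 0.555) and 0.913 (adjusted exact p = 0.847). Members scoring at least 5 were also set against every peak of the other list, an alternative added after the data were seen. Of these, 142 of 308 iBRG1 members (46.1%) overlapped an i∆HSA peak, against 48.4% of such peaks at CpG-rich promoters (odds ratio 0.911, 0.687–1.21, adjusted exact p = 0.532) and 41.1% away from starts (odds ratio 1.22, 0.965–1.55, adjusted exact p = 0.323). In the i∆HSA list 201 of 541 members (37.2%) overlapped an iBRG1 peak, against 40.1% (odds ratio 0.882, 0.712–1.09, adjusted exact p = 0.329) and 34.2% (odds ratio 1.14, 0.947–1.37, adjusted exact p = 0.323), so that all 4 kept their direction and none passed. With a reciprocal overlap of 50% the differences from CpG-rich promoters no longer passed, at 0.858 (adjusted exact p = 0.202) and 0.913 (adjusted exact p = 0.387), and those from peaks away from starts did.

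Overlap moved with the score. Of the iBRG1 members with scores of 0 or 1, 22 of 195 (11.3%) overlapped an i∆HSA peak, and of those with scores of 20 or more 17 of 29 (58.6%; 40.7–74.5%) did. Of the i∆HSA members with scores from 2 to 4, 58 of 466 (12.4%) overlapped an iBRG1 peak, and of those with scores of 20 or more 50 of 74 (67.6%; 56.3–77.1%) did. The rise was not particular to members. In the same iBRG1 score classes the shares went from 29.2% to 78.9% at CpG-rich promoters and from 6.32% to 73.4% away from starts. In the i∆HSA list they went from 19.3% to 64.9% and from 8.30% to 56.9%. The median score was 5 for overlapping and 2 for other iBRG1 members, and 9 and 4 for i∆HSA members. Over the whole lists these medians were 5 and 2, and 8 and 3. Members were also wide, with medians of 1773 and 1846 bp against 1321 and 1318 bp over the whole lists and 2072.5 and 2246 bp at CpG-rich promoters, and the part of width in the overlap was not tested.

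Members at starts with an observed/expected ratio of at least 0.6 covered a start and met a canonical start more often than other members. Their overlap with the other list was higher in the iBRG1 list, and in the i∆HSA list the intervals did not separate. Such members were 154 (16.8%) of the iBRG1 and 253 (24.7%) of the i∆HSA members. Of these, 48.1% (40.3–55.9%) and 28.9% (23.6–34.7%) overlapped a peak of the other list, against 26.4% (23.4–29.6%) and 24.3% (21.4–27.4%) of the other members. They covered a start in 83.1% and 90.5% of cases, against 53.7% and 51.4% of the other members. Canonical starts were met by 85.1% and 88.9% of them, against 30.3% and 36.1% of the other members. At CpG-rich promoters 93.4% and 93.4% of peaks met one. These values are descriptions without a test.

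CpG-poor promoter peaks were less centered on starts than CpG-rich promoter peaks. A start lay inside 539 (58.7%; 55.4–61.8%) of the iBRG1 and 625 (61.1%; 58.1–64.0%) of the i∆HSA members, against 81.8% and 78.1% of CpG-rich promoter peaks. The midpoint lay within 250 bp of the nearest start in 22.2% and 23.5% of members, against 36.3% and 32.4%. It lay over 1000 bp away, with an edge still in the promoter window, in 32.4% and 31.0% of members. Midpoints fell upstream of the start in 52.4% of iBRG1 and 51.0% of i∆HSA members. This comparison is descriptive, since the starts that define the classes also set the distances.

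**Figure D2:**
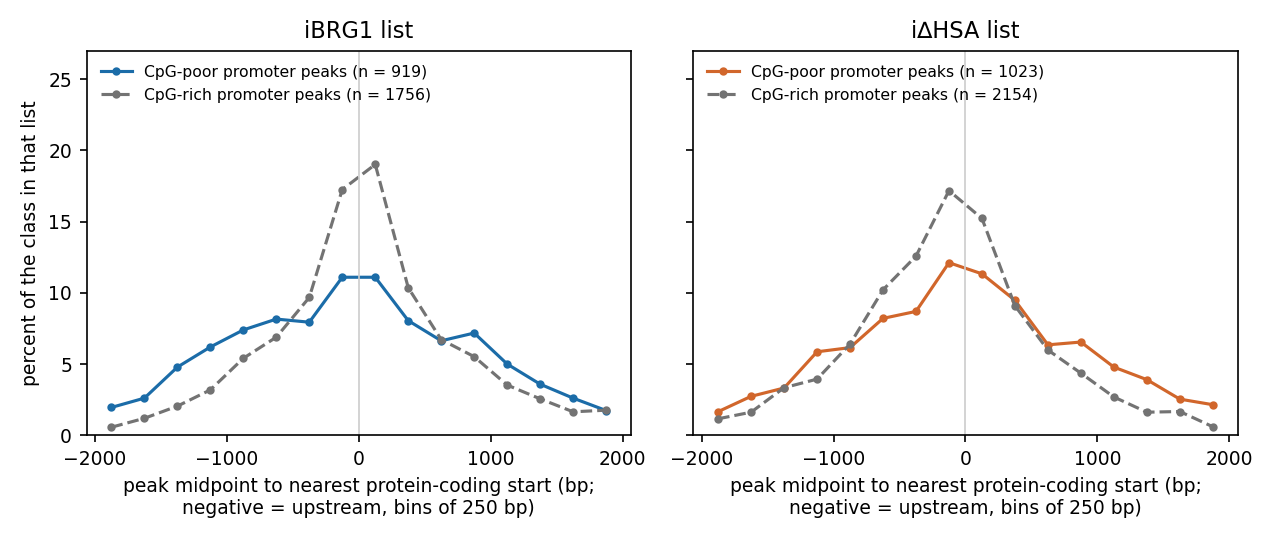
Percent of each class of peaks (y axis) by the distance from peak midpoint to the nearest protein-coding start in bp (x axis, bins of 250 bp, negative upstream), for CpG-poor and CpG-rich promoter peaks of each list. The 2 bins next to the start each held 11.1% of the iBRG1 members, against 17.3% and 19.0% of the CpG-rich promoter peaks of that list.

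The highest score of an iBRG1 member, 48, was at OR4F17, an olfactory receptor gene (chr19:106773-109007). It was followed by 44 at CPSF2, a subunit of the pre-mRNA cleavage and polyadenylation factor (chr14:92619511-92621705), and 40 at MAPRE2, a microtubule plus-end protein (chr18:32558838-32559900). KTN1, a kinesin-binding membrane protein (chr14:56066975-56068325), and YJU2, a splicing factor (chr19:4246702-4248477), both had 38. NLK, a kinase of the Wnt and Notch pathways (chr17:26367909-26368798), SMG1, a kinase of nonsense-mediated mRNA decay (chr16:18877339-18881366), and ANXA1, the phospholipid-binding protein annexin A1 (chr9:75763650-75766008), each had 35. Of these 8, CPSF2 and KTN1 overlapped no i∆HSA peak, and the median member score was 3. The NLK peak also met a CpG-rich start of an NLK transcript not annotated as protein-coding, which the class does not count. Members that met such a start numbered 36 (3.92%) in the iBRG1 list and 36 (3.52%) in the i∆HSA list. At CpG-rich promoters 75.4% and 75.3% of peaks did.

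The strongest i∆HSA members began with SMG1 at 124 (chr16:18876482-18878757) and SLC16A1, the lactate transporter MCT1, at 112 (chr1:113477345-113479355). NPIPB8, of a nuclear pore-interacting family, had 88 (chr16:28647248-28648309), MAPRE2 87 (chr18:32558615-32559895), and IMPA1, inositol monophosphatase, 80 (chr8:82596216-82598354). OR11H4, an olfactory receptor gene, had 72 (chr14:20704181-20706571), MTMR11, of the myotubularin family, 63 (chr1:149909374-149911707), and PRR5L, a partner of the kinase complex mTORC2, 61 (chr11:36372405-36373493). The median member score in this list was 5. OR4F17, SMG1 and NPIPB8 have near-identical copies elsewhere in the genome, so reads at these peaks could come from a copy, and their values are uncertain. The OR11H4 and PRR5L peaks held 16.4% and 7.81% G and C. They were among 8 i∆HSA members under 25%, where the iBRG1 list had 0 members, and over all peaks 4.64% of the i∆HSA and 0.888% of the iBRG1 list were under 25%. All 8 overlapped no iBRG1 peak, and over the whole i∆HSA list only 147 of the 1178 peaks under 25% overlapped one. The part of base composition in these peaks was not tested.

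Members without a counterpart in the other list included peaks at RAB2A (score 32), a GTPase of endoplasmic reticulum to Golgi transport, EPS8 (29), an actin-capping adaptor of growth factor receptors, and NT5C2 (28), a cytosolic nucleotidase, in the iBRG1 list. All 3 lay at alternative starts of genes that also have a CpG-rich start. In the i∆HSA list they included CTSB (61), the lysosomal protease cathepsin B, and KISS1 (47), the kisspeptin precursor. The KISS1 peak lay at its canonical start, with the midpoint 1016 bp downstream, and the CTSB peak at an alternative one. RAB2A and CTSB each had another member, in the other list, at a different place among their starts.

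Overlapping members formed 239 pairs, from 238 peaks of each list. Their midpoints lay a median of 373 bp apart (quartiles 145 and 686 bp), with 40 pairs within 100 bp and 29 over 1000 bp apart, and the overlap made up a median of 59.3% of the joint length. Spearman's rho of the scores was 0.387 across the 239 pairs, which share starts and base composition and are given as a description. Both scores were at least 5 in 101 pairs. To set the lists side by side, each score was turned into a percentile, the share of all peaks of its list at or below it. The percentile was higher in the i∆HSA list in 148 pairs and in the iBRG1 list in 91, and it differed by over 25 points in 68 pairs (28.5%). The scores are integers with many ties, and these counts are not given here for the overlapping peaks of the whole lists.

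The 10 strongest pairs by mean percentile were SMG1, MAPRE2, OR4F17, YJU2, SLC16A1, ANXA1, MMP10, NLK, SCHIP1 and PRCP. MAPRE2 had scores of 40 and 87 with midpoints 114 bp apart, 979 and 865 bp downstream of an alternative start, and AP-1 letters at both centers. ANXA1 had 35 and 36 with midpoints 31 bp apart, 1952 and 1921 bp upstream of its canonical start. MMP10 had 19 and 46 with midpoints 239 and 5 bp downstream of the start whose TATAAA is printed above. SCHIP1, which binds the tumor suppressor merlin, had 26 and 26 with midpoints 21 bp apart, and PRCP, a lysosomal carboxypeptidase, had 20 and 26. SLC16A1 had 18 and 112 with midpoints 582 bp apart. In SMG1 the midpoints were 1733 bp apart, so that pair shared 29.0% of its joint length.

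The pairs with the widest difference in percentile ran in both directions, and those named here were chosen after their values were seen. At NRCAM, a neuronal adhesion molecule, the scores were 15 in iBRG1 and 2 in i∆HSA (percentiles 94.9 and 26.0). At IL7R, the interleukin-7 receptor, they were 5 and 2 (78.3 and 26.0). At ITM2B, a membrane protein that restrains amyloid precursor processing, they were 1 and 13 (28.6 and 88.0), and at RFX5, a regulator of MHC class II genes, 1 and 10 (28.6 and 84.3), with midpoints 2 bp apart.

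**Figure D3:**
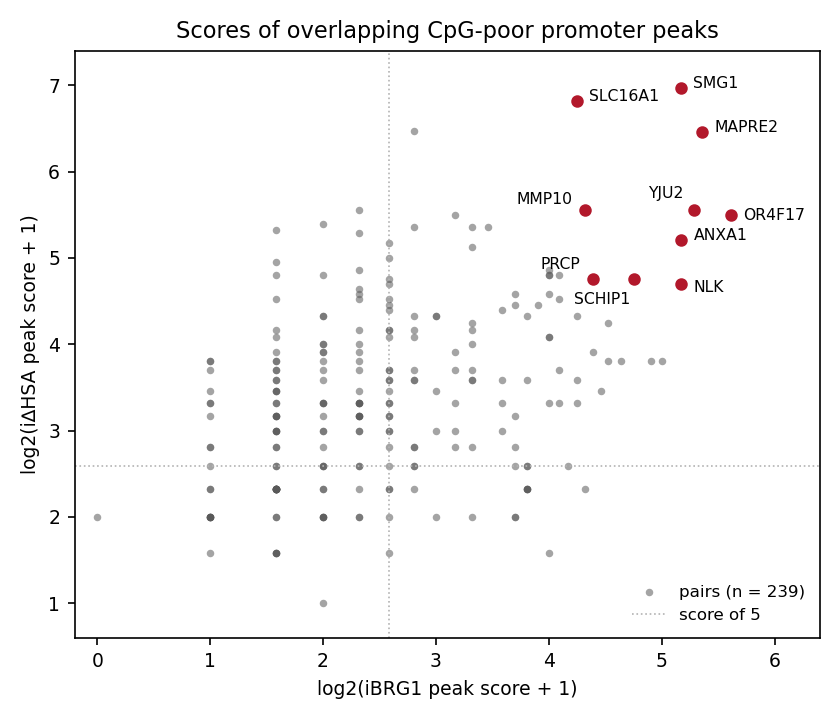
Scores of the 239 overlapping pairs of CpG-poor promoter peaks on log2(score + 1) axes, iBRG1 on x and i∆HSA on y, with dotted lines at a score of 5 and the 10 strongest pairs named. Points spread widely around the trend (Spearman's rho 0.387), and SMG1 (35 and 124), MAPRE2 (40 and 87) and SLC16A1 (18 and 112) stand at the top.

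Gene families are given by counts without a test, beside a background of 7.26% of CpG-poor genes with an iBRG1 peak and 9.54% with an i∆HSA peak. Of 390 CpG-poor olfactory receptor genes, 11 (2.82%) had an iBRG1 and 8 (2.05%) an i∆HSA peak, with 1, OR4F17, in both. Of 94 keratin-associated protein genes, which build hair, 4 and 0 had one: KRTAP4-9 (score 13), KRTAP4-7 (5), KRTAP1-1 (1) and KRTAP4-6 (1), genes of a family with close copies. Of 49 keratin genes 3 and 1 had a peak, the strongest at KRT80 in the i∆HSA list (36). Interferons and defensins had 0 and 1 of 67, cytochrome P450 enzymes 1 and 1 of 37, cadherins and protocadherins 1 and 2 of 61, and S100 proteins 0 and 0 of 19.

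Immune genes were mixed. Interleukins and chemokines had a peak at 7 and 6 of 77 genes. IL4, the type 2 helper cytokine, had scores of 2 in iBRG1 and 39 in i∆HSA (percentiles 51.0 and 96.8), with midpoints 948 and 471 bp downstream of its start. IL1A, an inflammatory cytokine, had a peak only in i∆HSA (24), and IL18 only in iBRG1 (5). Interferon-induced and guanylate-binding genes had a peak at 1 and 5 of 26 genes. IFI30, a lysosomal thiol reductase, had one in both, and IFI27L2 (10), IFITM3 (8), which blocks viral entry, and IFI6 (5) in i∆HSA only. Caspase and caspase recruitment genes had 3 and 3 of 27, with the inflammasome sensor NLRP1 at scores of 6 and 40. Tumor necrosis factor family genes had 2 and 0 of 21.

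Genes of the matrix and adhesion had higher shares in some families, on few genes. Matrix proteases and inhibitors had a peak at 5 and 3 of 29 genes (17.2% and 10.3%). Beside MMP10, the proteases MMP7 (6) and MMP13 (4) had an iBRG1 peak, and ADAMTS6 (22) an i∆HSA peak. Collagens had 3 and 1 of 22, among them COL6A1 (score 2) in iBRG1 and COL1A1 (score 3) in i∆HSA, and integrins and laminins 1 and 4 of 19 (5.26% and 21.1%). LAMA2, a laminin chain of muscle basement membrane, had a score of 11 in both lists at alternative starts. Serpins had 1 and 1 of 28, with SERPINA3, an antiprotease, at a score of 22 in iBRG1. Claudins had 2 and 1 of 16, and actin and myosin genes 2 and 1 of 27. Of the 3 CpG-poor YAP-TEAD targets, ANKRD1 (17) had an iBRG1 peak and MYOF an i∆HSA peak.

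Transport, metabolic and surface genes lay near or below the background. Solute carriers had a peak at 9 and 11 of 132 CpG-poor genes, ion channels at 1 and 6 of 66, among them the potassium channel KCNJ1 (26) in i∆HSA, and apolipoproteins and fatty acid-binding proteins at 2 and 3 of 40. That list was matched by symbol and takes in APOOL, a mitochondrial inner membrane protein with a peak in both lists. CD-numbered surface genes had 2 and 2 of 59, steroidogenic genes 1 and 0 of 17, and UDP-glucuronosyltransferases 0 and 1 of 21.

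Zinc finger genes, taken here by the ZNF symbol and mostly transcription factors that repress transposable elements and genes, were the family with the highest share in the i∆HSA list among families of 16 or more CpG-poor genes. Of 136 CpG-poor ones, 15 (11.0%; 6.80–17.4%) had an iBRG1 and 36 (26.5%; 19.8–34.5%) an i∆HSA peak, with 5 in both, 10 only in the former and 31 only in the latter. Chromosome 19 held 77 of them, of which 8 had an iBRG1 peak and 23 an i∆HSA peak. Those with an observed/expected ratio of at least 0.6 had a peak at 4 of 51 (7.84%; 3.09–18.5%) in iBRG1 and 21 of 51 (41.2%; 28.8–54.8%) in i∆HSA. The other CpG-poor genes with such a ratio had one at 18.0% and 25.7% of 1072. Among ZNF genes without a CpG-rich start, the i∆HSA members of highest score were at ZNF317 (22) and ZNF430 (18), neither with an iBRG1 member. ZNF438, which also has a CpG-rich start, had a member of score 12 in iBRG1 and 23 in i∆HSA. ZNF827 had scores of 20 in iBRG1 and 14 in i∆HSA, and ZNF737 had 4 and 14. The difference between the lists was not tested, as each has 1 list.

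**Figure D4:**
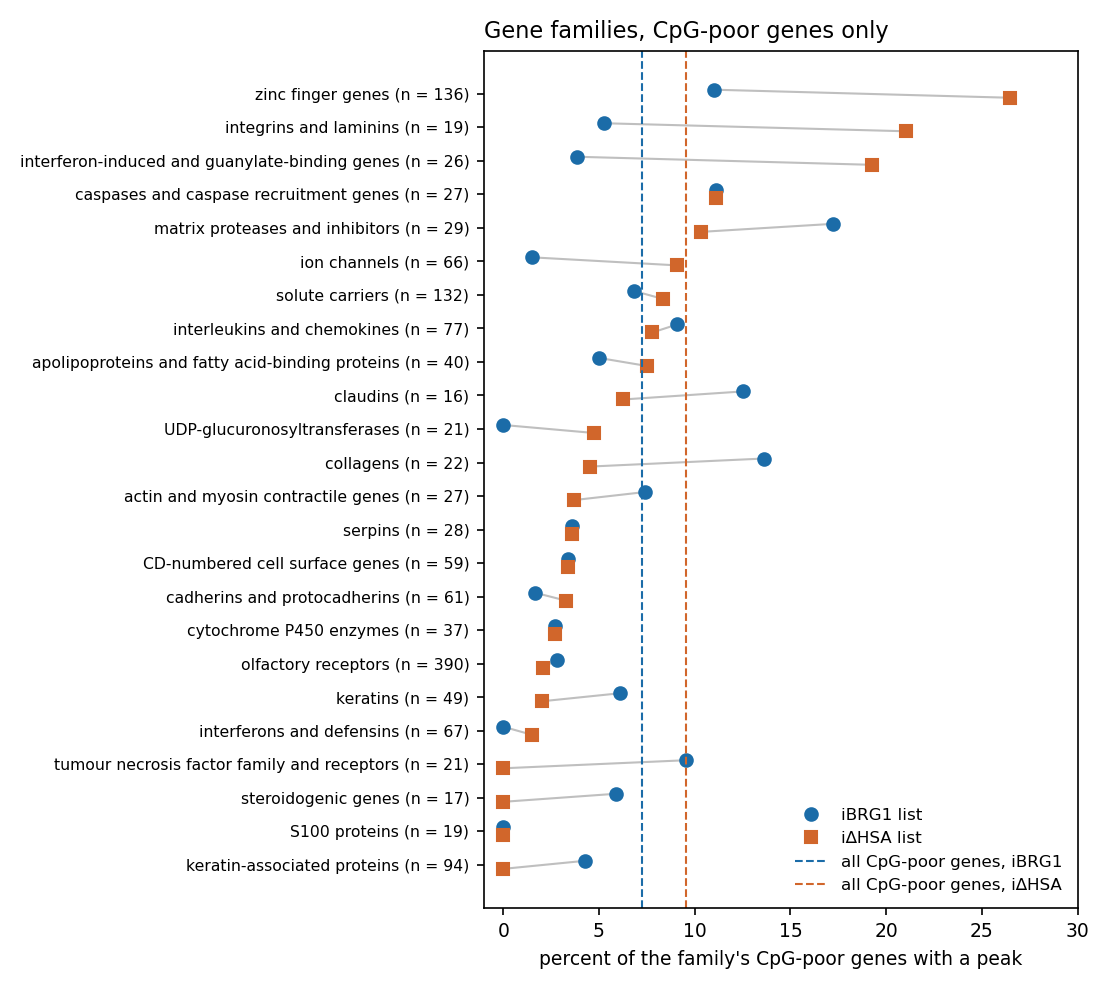
Percent of the CpG-poor genes of each family with a peak within 1000 bp of a start, for families of 16 or more such genes (n beside each name), in the iBRG1 list (circles) and the i∆HSA list (squares). Dashed lines mark all CpG-poor genes, at 7.26% and 9.54%, and zinc finger genes stand at 11.0% and 26.5%.

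Chromosome 19 held 48 iBRG1 and 98 i∆HSA members, which is 5.22% and 9.58% of the members, against 2.28% and 4.13% of all peaks of those lists and 7.65% of the CpG-poor genes. The X chromosome held 26 and 56 members (2.83% and 5.47%), against 2.59% and 3.98% of all peaks and 6.03% of the CpG-poor genes.

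Letters of 6 motifs were compared between CpG-poor genes with and without a peak, in the 1000 bp on each side of the first start of the gene and on both strands, with two-sided Fisher's exact tests adjusted over 12 tests. A peak at any start of the gene counted, so the letters and the peak could lie at different starts. ETS factors are activators found at many housekeeping promoters, and their letters CCGGAAGT were more frequent at genes with a peak in both lists. They were at 54 of 513 genes with an iBRG1 peak (10.5%) and 4.26% of those without (odds ratio 2.64, 1.91–3.61, adjusted exact p = 7.96e-08), and at 92 of 674 genes with an i∆HSA peak (13.6%) and 3.77% of those without (odds ratio 4.03, 3.09–5.23, adjusted exact p = 2.49e-21). The share over all 19796 genes was 8.78%. These letters hold a CpG, and genes with a peak had higher CpG content as given above. Among genes whose first start had a ratio under 0.6 the odds ratios were 2.52 (adjusted exact p = 0.00357) and 2.41 (adjusted exact p = 0.00357). In the classes of highest ratio given above, from lowest to highest, the letters were at 1.30%, 1.45%, 4.95% and 16.8% of CpG-poor genes. The restriction therefore did not even out CpG content, whose part was not tested.

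AP-1 letters were at 31.2% of CpG-poor genes with an iBRG1 peak and 25.9% of those without (odds ratio 1.29, 1.06–1.58, adjusted exact p = 0.0257). In the i∆HSA list the shares were 26.3% and 26.3% (odds ratio 0.997, 0.827–1.20, adjusted exact p = 1), and the difference between the lists was not tested. TATAAA was at 70.6% and 65.2% in the iBRG1 list (odds ratio 1.28, 1.05–1.57, adjusted exact p = 0.0277) and at 67.7% and 65.4% in the i∆HSA list (odds ratio 1.11, 0.932–1.32, adjusted exact p = 0.333). Among peaks that scored at least 5 the AP-1 and TATAAA differences of the iBRG1 list did not pass (adjusted exact p = 0.152 and 0.0909), nor with 500 bp searched on each side (adjusted exact p = 0.354 and 0.631). The RUNX letters TGTGGT were less frequent at genes with a peak, at 65.5% against 71.7% in iBRG1 (odds ratio 0.748, adjusted exact p = 0.00976) and 66.0% against 71.8% in i∆HSA (odds ratio 0.762, adjusted exact p = 0.00688). Neither passed among genes with a ratio under 0.6 (adjusted exact p = 0.283 and 0.345), and the iBRG1 value did not pass with scores of at least 5 (adjusted exact p = 0.0835) or the 500 bp window (adjusted exact p = 0.233) either. Under a ratio of 0.6 the iBRG1 odds ratio was 1.49 for AP-1, which passed (adjusted exact p = 0.00380), and 1.21 for TATAAA, which did not (adjusted exact p = 0.283). TEAD letters, GGAATG, had odds ratios of 1.06 (0.871–1.29) and 1.08 (0.905–1.28), and the E-box letters CACGTG 1.19 (0.960–1.46) and 1.20 (0.998–1.45), none of which passed. With scores of at least 5 the E-box value of the i∆HSA list did pass (odds ratio 1.40, adjusted exact p = 0.0124). Over all protein-coding genes the shares were 20.7% for AP-1, 51.6% for TATAAA, 61.8% for RUNX, 62.4% for TEAD and 29.0% for the E-box letters.

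**Figure D5:**
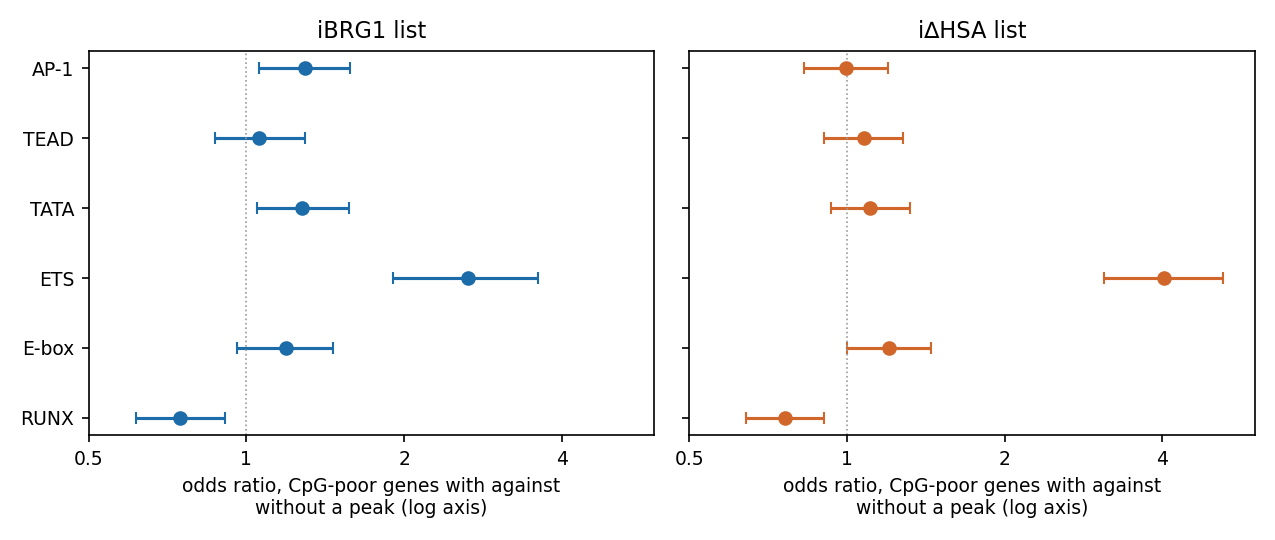
Odds ratio (log axis) of holding each motif's letters within 1000 bp of the first start, for CpG-poor genes with against without a peak, with 95% intervals, in the iBRG1 and i∆HSA lists. ETS stands apart at 2.64 and 4.03, and RUNX lies under 1 at 0.748 and 0.762.

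At peak centers, within 100 bp of the midpoint, AP-1 letters were in 66 iBRG1 members (7.18%; 5.68–9.04%) and 57 i∆HSA members (5.57%; 4.33–7.15%). Over all peaks the shares were 8.89% and 6.18%, and at CpG-rich promoters 2.68% and 2.37%. Members that overlapped a peak of the other list had them in 9.42% and 10.8% of cases, against 6.22% and 3.80% of the others. Over all peaks of the lists the same split gave 12.2% and 12.6% against 8.03% and 4.61%. Of the 239 pairs, 44 (18.4%) held the letters at 1 center or both. Each pair was searched at both centers, so this share cannot be set against those of single peaks. It is not given here for the overlapping pairs of the whole lists. The ETS letters, compared above around starts, were at the centers of 4 iBRG1 members (0.435%) and 11 i∆HSA members (1.08%). Their shares were 0.207% and 0.233% over all peaks, and 1.54% and 1.30% at CpG-rich promoters.

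Of 10 genes taken from the study, SRPX2, a secreted protein of cell migration, had a member in both lists. Its scores were 4 in iBRG1 (chrX:99898153-99899410) and 24 in i∆HSA (chrX:99897672-99899628), percentiles 72.8 and 94.0, and both peaks covered its canonical start. MYOF, a membrane repair protein, had a member only in i∆HSA (score 20, chr10:95241967-95242957), and CRYAB, a small heat shock protein, only in iBRG1 (score 3, chr11:111793303-111794103). SPARC, SNCG and ITIH3 are CpG-poor genes with 0 promoter peaks in either list, and CSF1, CD44 and CDKN1A are CpG-rich genes with 0. SMARCA4, which encodes BRG1 itself, had 2 iBRG1 members (scores 1 and 2) and 1 i∆HSA member (score 11) at CpG-poor alternative starts. Those 3 peaks began 1 or 2 bp from an exon edge, and the cells carry a BRG1 coding sequence without introns as the transgene, whose part in these peaks was not tested.

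At the edge of the class, the iBRG1 member closest to the thresholds was at the histone gene H2BC17 (54.9% GC, ratio 0.785, score 2) and the nearest CpG-rich promoter peak at the proteasome gene PSMB2 (55.0%, 0.791, score 2). In the i∆HSA list they were at ZNF790 (54.9%, 0.611, score 9) and DPF3 (55.0%, 0.923, score 10).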

How the data were processed

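The measurements were CUT&RUN peaks of 2 constructs, and sample titles gave the groups. According to the methods of the study, the authors trimmed reads with Cutadapt, aligned them with Bowtie2, removed duplicates with Picard, called peaks with MACS2 (version 2.2 per the submitters' processing notes, which also name hg19), removed peaks of negative controls and applied a minimum score of 5. The deposited score of each peak is an integer of unstated scale, and both lists hold scores below 5. A target depth is stated, but neither the depth reached nor whether replicates were pooled is given in the sources used here. Cells without doxycycline and control libraries were not analysed here. The study reports fewer peaks per construct than these lists hold. Whether the lists passed the filter on negative controls is not known from the sources used here. Duplicate removal and such a filter can decide which sites enter a list.

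Starts came from protein-coding transcripts of GENCODE release 44 mapped to GRCh37 (hg19), and 0 peaks ended beyond a chromosome. Of the starts, 78633 were used and 70 left out because their class window held undetermined bases. Positions are 1-based. Any base of a peak within 1000 bp of a start assigned it, and an overlap of 1 bp made it shared. Where many starts were met, the nearest to the midpoint gave the gene and offset. The tests were two-sided Fisher's exact tests with Benjamini-Hochberg adjustment over 4 tests of overlap, 2 of genes and 12 of motifs, called at 0.05. Intervals for shares are 95% Wilson intervals and cover counting error only. The functions were tested on simulated data. Python 3.11.15, scipy 1.17.1, numpy 2.4.6, pandas 2.3.3, pysam 0.24.0 and matplotlib 3.10.9 were used.

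Named genes were the 8 highest-scoring members of each list, the 10 overlapping pairs of highest mean percentile, the 5 highest members of each list without a counterpart, up to 4 genes per family in 25 families matched by symbol, and 10 genes of the study. Members, families and motifs were chosen with earlier results of these data known. Alternatives were starts of basic transcripts, a 500 bp window, midpoint assignment, other CpG rules, scores of at least 5, reciprocal overlap of 50%, peaks of at least 25% GC and a 500 bp motif window. Midpoints within 500 bp, the minimum score on 1 list at a time and 2 restrictions of the motif test were added after the data were seen.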

Additional observations from a re-analysis of the deposited data

How the results depend on the processing

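The lower share of CpG-poor than CpG-rich genes with a peak kept its direction and passed under every alternative run, with odds ratios for iBRG1 and i∆HSA from 0.237 and 0.235 (observed/expected ratio alone) to 0.337 (basic starts) and 0.424 (scores of at least 5). Scores of at least 5 left 308 iBRG1 and 541 i∆HSA members, and with the same minimum on the other list 38.3% and 20.7% of them overlapped one of its peaks. The odds ratios of overlap against CpG-rich promoter peaks were then 0.935 and 1.01, and against peaks away from starts 1.20 and 0.913, so that both i∆HSA values turned direction and none of the 4 passed. With the other list kept whole, added after the data were seen, the shares were 46.1% and 37.2%, the odds ratios 0.911 and 0.882 against CpG-rich promoter peaks and 1.22 and 1.14 against peaks away from starts, all in the first direction and none passing. With a reciprocal overlap of 50% the overlapping shares were 18.1% and 15.8% and the odds ratios against CpG-rich promoter peaks 0.858 and 0.913. With midpoints within 500 bp, an alternative added after the data were seen, the shares were 16.9% and 14.9% and those odds ratios 0.854 and 0.931, none of which passed. Fewer peaks enter or count under each of these 4 settings, and the cause of the lost differences was not tested.

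The motifs more frequent at genes with a peak numbered 3 in iBRG1 and 1 in i∆HSA, against 1 and 2 with scores of at least 5 and 1 and 1 with a 500 bp window. With scores of at least 5 the 2 in i∆HSA were the ETS and E-box letters. ETS passed under all 4 motif alternatives in both lists. Values that did not pass at first and turned direction were AP-1 in i∆HSA (1.12 with scores of at least 5, 1.11 with the 500 bp window, 1.13 among genes with a ratio under 0.6, and 1.04 where only peaks of the CpG-poor class counted), TEAD in iBRG1 (0.920 with the 500 bp window), TATAAA in i∆HSA (0.907 with that window and 0.975 under a ratio of 0.6), and the E-box letters in iBRG1 (0.995 under a ratio of 0.6). The last 2 kinds of restriction were added after the data were seen. No paired analysis was possible because no value is given per replicate (a construct has 1 list), and for the same reason no replicate could be left out. Depth, not given as reached, limits every statement that a gene has no peak.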
